A study of Homo sapiens with 8 samples.

Results

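The block described here is the stretch of the short arm of human chromosome 7 from 40 to 55 Mb (build hg38), as seen in open chromatin of the NCI-H295R line, which was established from a human adrenocortical carcinoma. Its members are all peaks that start in that stretch in 4 peak lists, which came to 4961 of 200358 peaks. By list, the block held 1307 of 41086 peaks with EZH2i, 936 of 47161 with CBPi, 1429 of 51095 with FSK and 1289 of 61016 with vehicle. The members were chosen by peak density along the chromosome, with lost and gained peaks of these same lists already known, so densities, shapes, losses and gains are given as a description with no test.

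Peaks came from ATAC-seq, which maps open chromatin by the sites where the Tn5 transposase inserts sequencing adapters. EZH2i cells had 96 h of 62 µM EPZ-6438, an inhibitor of EZH2, and CBPi cells had 96 h of 26 µM PRI-724, a CBP inhibitor, both doses being given by the labels as the IC-50. FSK cells had 48 h of 10 µM forskolin after 48 h of vehicle, and vehicle cells had DMSO for 96 h. Each group had 2 libraries, called biological replicates in the labels, but only 1 peak list. No spread between replicates can therefore be given, and read depth is unknown. All groups are the same cell line, and peaks were looked for within 1 kb of either end of 10 adrenocortical marker genes. Such peaks were present at 6, 6, 8 and 7 of the 10 in the EZH2i, CBPi, FSK and vehicle lists. They were absent from HSD3B2 and SULT2A1 in all 4, from CYP21A2 in all but FSK, and from MC2R with EZH2i and CBPi. Most protein-coding genes of the block also had such a peak in all 4 lists, so these counts do not by themselves show identity. Of 5 markers each, fibroblast genes had such a peak at 2, endothelial genes at 1 and chromaffin genes at 2 in every list.

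EZH2 is the catalytic subunit of a Polycomb repressive complex, which methylates histone H3 at silenced genes. CBP is a histone acetyltransferase that acts as a coactivator at enhancers, and PRI-724 is known for blocking its contact with β-catenin. Forskolin activates adenylyl cyclase and so raises cAMP, the messenger through which ACTH acts on adrenal cortex. An ATAC-seq peak marks nucleosome-poor DNA, most sharply at promoters, while broad stretches of raised signal also occur over open domains.

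The RefSeq promoter table (GRCh38.p14, the build of hg38) held 133 windows in the block, and 8 are printed because they show the states a promoter took across the lists. They were chosen after their peaks were known. Each is the 250 bases before an annotated start, 5′ to 3′ on the gene's strand, with matches on either strand to 6 searched motifs in capitals. The first pair, at ABCA13 (an ABC transporter; chr7:48171208-48171457, plus strand) and at the lncRNA LOC124901632 inside GRB10 (chr7:50641507-50641756, plus strand), lay under vehicle peaks that were absent with CBPi.
ABCA13: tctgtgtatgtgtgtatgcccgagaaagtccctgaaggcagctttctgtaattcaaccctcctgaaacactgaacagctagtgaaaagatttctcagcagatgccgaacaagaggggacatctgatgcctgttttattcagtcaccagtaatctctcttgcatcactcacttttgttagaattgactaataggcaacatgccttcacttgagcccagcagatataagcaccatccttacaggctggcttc
LOC124901632: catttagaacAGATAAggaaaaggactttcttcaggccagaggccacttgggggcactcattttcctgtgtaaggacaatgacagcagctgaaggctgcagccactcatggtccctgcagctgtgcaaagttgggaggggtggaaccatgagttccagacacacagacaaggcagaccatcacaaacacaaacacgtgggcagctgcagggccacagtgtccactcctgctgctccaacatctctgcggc
The next set gained cover in treated lists. LUARIS is a lncRNA inside HECW1 (chr7:43522543-43522792, minus strand), NACAD codes for a protein with a nascent polypeptide-associated complex domain (chr7:45088970-45089219, minus strand), and DDC-AS1 is antisense to DDC (chr7:50531509-50531758, plus strand).
LUARIS: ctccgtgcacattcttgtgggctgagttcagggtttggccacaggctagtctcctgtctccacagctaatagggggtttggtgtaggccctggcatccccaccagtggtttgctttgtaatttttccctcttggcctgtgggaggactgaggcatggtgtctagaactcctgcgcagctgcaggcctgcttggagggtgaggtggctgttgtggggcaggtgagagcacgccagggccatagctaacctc
NACAD: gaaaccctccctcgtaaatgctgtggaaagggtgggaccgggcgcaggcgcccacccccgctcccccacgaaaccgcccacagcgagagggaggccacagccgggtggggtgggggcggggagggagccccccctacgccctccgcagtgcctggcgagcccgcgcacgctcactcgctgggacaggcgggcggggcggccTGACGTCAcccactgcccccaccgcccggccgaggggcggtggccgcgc
DDC-AS1: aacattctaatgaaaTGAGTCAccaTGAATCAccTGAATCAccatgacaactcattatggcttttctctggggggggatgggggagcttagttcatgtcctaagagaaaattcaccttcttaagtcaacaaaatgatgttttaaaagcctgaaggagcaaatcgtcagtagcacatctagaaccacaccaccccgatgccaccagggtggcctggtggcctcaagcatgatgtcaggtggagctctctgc
For contrast, the main start of IKZF1 (a lymphoid transcription factor; chr7:50304466-50304715, plus strand) and that of VWC2 (a secreted BMP antagonist; chr7:49773388-49773637, plus strand) were fully covered in all 4 lists, and a downstream IKZF1 start (chr7:50308450-50308699, plus strand) was not.
IKZF1 main start: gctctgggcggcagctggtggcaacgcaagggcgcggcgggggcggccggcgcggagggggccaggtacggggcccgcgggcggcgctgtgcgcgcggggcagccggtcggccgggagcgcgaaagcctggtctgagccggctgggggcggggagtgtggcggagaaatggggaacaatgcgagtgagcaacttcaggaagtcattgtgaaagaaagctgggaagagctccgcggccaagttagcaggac
IKZF1 downstream start: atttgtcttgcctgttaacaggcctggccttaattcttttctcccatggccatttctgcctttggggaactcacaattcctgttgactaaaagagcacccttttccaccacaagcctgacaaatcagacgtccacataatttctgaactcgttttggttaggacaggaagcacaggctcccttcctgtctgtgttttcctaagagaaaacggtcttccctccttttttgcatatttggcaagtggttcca
VWC2: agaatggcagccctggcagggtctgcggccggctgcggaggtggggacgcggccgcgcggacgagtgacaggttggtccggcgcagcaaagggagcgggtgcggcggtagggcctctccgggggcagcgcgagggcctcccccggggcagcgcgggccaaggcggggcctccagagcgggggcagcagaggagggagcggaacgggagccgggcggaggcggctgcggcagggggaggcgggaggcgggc

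At ABCA13, peaks covered 250 bases of the printed window with EZH2i, 0 with CBPi, 80 with FSK and 250 with vehicle. LOC124901632 was covered over 250, 0, 250 and 250 bases in the same order of lists, and its 1 match was to the GATA motif AGATAA. LUARIS was covered over 250 bases with EZH2i and with FSK, and over 0 with CBPi and with vehicle. The NACAD window was covered over 250 bases in each of the 3 treated lists and over 0 in the vehicle list, with peaks 2641 bp (EZH2i), 5509 bp (CBPi) and 5682 bp (FSK) wide that also reached a neighbouring vehicle peak, and it held 1 match to the cAMP response element TGACGTCA. DDC-AS1 was covered over 250 bases with CBPi and with FSK and over 0 with EZH2i and with vehicle, and held 3 matches to the AP-1 motif TGANTCA. The downstream IKZF1 start was covered over 250 bases with EZH2i, 0 with CBPi, 0 with FSK and 33 with vehicle.

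AGATAA was in 10.5% of the 133 block windows and in 9.17% of all 35116 windows of the table, TGACGTCA in 2.26% and 1.65%, and TGANTCA in 10.5% and 6.57%. The remaining motifs, AAGGTCA (SF1), CTTTGAT (TCF/LEF) and CCGGAAG (ETS), were in 3.76%, 1.504% and 8.27% of block windows and in 3.44%, 2.26% and 8.52% of all windows. These are letter matches only. The 72 block windows touched by a peak in all 4 lists had a median GC content of 66%, the 21 touched in 1 to 3 lists 54%, and the 40 touched in none 42%. Over all 35116 windows, these classes held 15887, 2099 and 17130 windows with medians of 66.4%, 57.6% and 48%. The order was thus not particular to the block. Of the printed windows, VWC2 had 78.8% GC and the main IKZF1 start 71.2%, against 44.8% at ABCA13 and 45.2% at the downstream IKZF1 start, while NACAD, covered in 3 lists, had 76.8%.

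Peaks were crowded and spread over the block rather than gathered at gene ends. Density was 87.1 peaks per Mb with EZH2i (exact Poisson 95% interval 82.5 to 92.0), 62.4 with CBPi (58.5 to 66.5), 95.3 with FSK (90.4 to 100.3) and 85.9 with vehicle (81.3 to 90.8). The rest of the same lists had 13.2, 15.3, 16.5 and 19.8 peaks per Mb, so the block was 6.60, 4.07, 5.78 and 4.33 times as dense. Intervals here and below cover counting error only, with peaks taken as independent. Peaks covered 9.21% of the block with EZH2i, 6.79% with CBPi, 8.78% with FSK and 6.92% with vehicle, against 1.00%, 1.18%, 1.14% and 1.38% of the rest of the genome. The block's share of its list was 3.18% with EZH2i, 1.98% with CBPi, 2.80% with FSK and 2.11% with vehicle.

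Neighbouring summits in the block stood a median of 4638.5 bp apart with EZH2i, 5916 bp with CBPi, 4493.5 bp with FSK and 5441 bp with vehicle. Elsewhere the same lists had median gaps of 32945, 25457.5, 28210 and 23777 bp. Only 6.89%, 9.62%, 6.30% and 7.29% of block peaks lay within 1 kb of an end of a protein-coding gene in the EZH2i, CBPi, FSK and vehicle lists, against 31.4%, 28.4%, 25.8% and 22.4% elsewhere. In number, these gene-end peaks were 90, 90, 90 and 94, nearly equal between lists, while the total of block peaks ranged more widely.

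**Figure D1:**
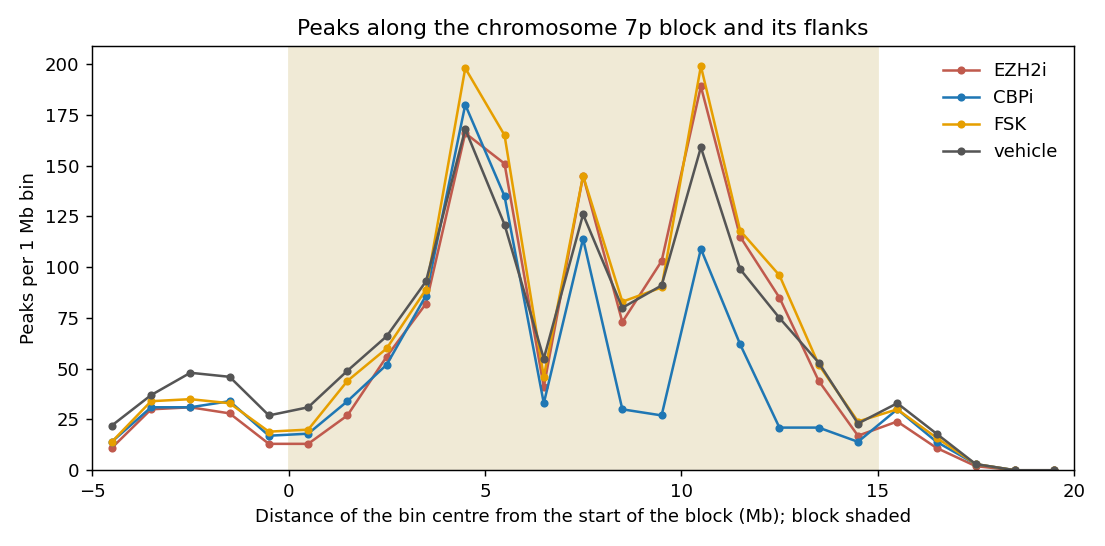
Peaks per 1 Mb bin (vertical axis) against distance of the bin centre from the start of the block in Mb (horizontal axis), 1 line per list, with the block shaded. All 4 lists have crests near 4 to 6, 7 to 8 and 10 to 11 Mb into the block, and the CBPi line runs below the others from 8 to 15 Mb.

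The crowding had crests rather than an even height. At 44 to 45 Mb, a gene-rich megabase with 21 protein-coding genes, there were 166 peaks with EZH2i, 180 with CBPi, 198 with FSK and 168 with vehicle. At 50 to 51 Mb, which holds IKZF1, DDC and GRB10, there were 189, 109, 199 and 159 peaks in the same order, so CBPi alone was below vehicle there. Between these crests, the megabase from 46 to 47 Mb held no protein-coding gene by start and had 41, 33, 46 and 55 peaks. By 5 Mb window, the part from 40 to 45 Mb held 344, 370, 411 and 407 peaks, that from 45 to 50 Mb 513, 339, 529 and 473, and that from 50 to 55 Mb 450, 227, 489 and 409. Among 598 such windows of the genome, these were the 3 with the most peaks in the EZH2i, FSK and vehicle lists, while with CBPi they ranked 1, 2 and 9. The median of all other windows was 60 peaks with EZH2i, 71 with CBPi, 79 with FSK and 98 with vehicle.

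The flanks were sparser, with 113, 127, 135 and 180 peaks at 35 to 40 Mb and 37, 47, 49 and 54 peaks at 55 to 60 Mb. The first peak inside the block had an area of 2456 at chr7:40133951-40135405 (EZH2i), 267 at chr7:40093654-40093943 (CBPi), 262 at chr7:40014451-40014756 (FSK) and 239 at chr7:40052558-40052797 (vehicle). The last peak before it, near an end of CDK13 in all 4 lists, had areas of 8621, 11041, 8857 and 11618 in the same order. At the far border, the last peaks inside had areas of 1588, 481, 1519 and 493, and the first outside 4381, 4895, 4889 and 5806. Area here is the authors' area of significance under a peak, a signal in the caller's own units that is compared only within a list.

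Block peaks were broader and weaker per base than the other peaks of their own list. Median width was 787 bp with EZH2i, 810.5 bp with CBPi, 689 bp with FSK and 645 bp with vehicle, which is 1.32, 1.37, 1.31 and 1.20 times the median elsewhere in the same list. Median area per bp was 0.678, 0.709, 0.761 and 0.852, which is 0.589 (95% interval 0.573 to 0.618), 0.559 (0.529 to 0.596), 0.646 (0.621 to 0.675) and 0.681 (0.652 to 0.712) times the median elsewhere. The interquartile ranges of width and of area per bp overlapped between block and rest in each list. Median −log10 of the summit p was 3.66, 3.70, 3.76 and 3.92 in the block, against 4.38, 4.65, 4.40 and 4.54 in the rest of the EZH2i, CBPi, FSK and vehicle lists. Among the megabases of the block, the weakest per base in the vehicle list were 44 to 46 Mb and 50 to 51 Mb. Their medians were 0.662, 0.635 and 0.672 per bp, against 1.09 to 1.21 per bp over the 4 megabases from 40 to 44 Mb.

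**Figure D2:**
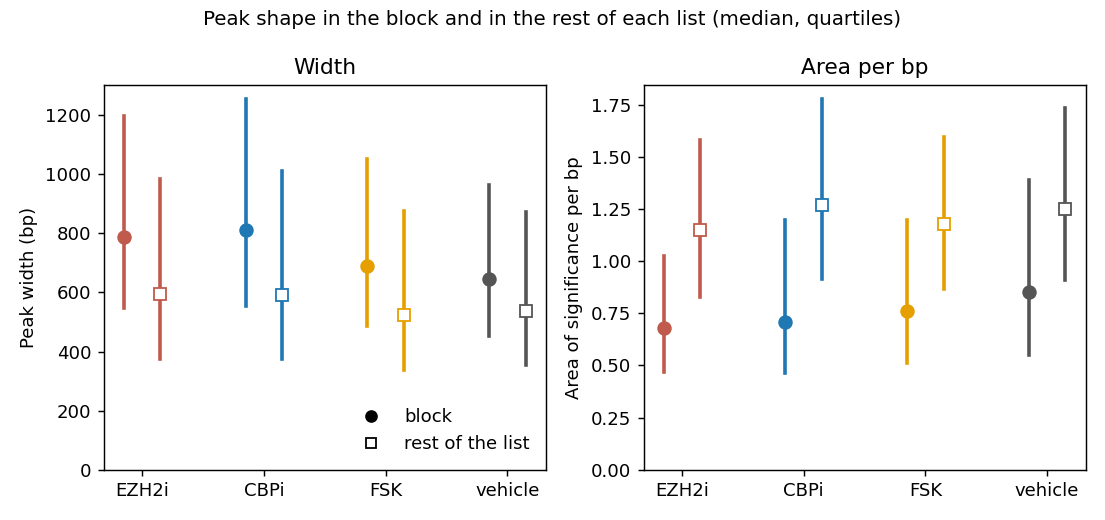
Peak width in bp (left) and area of significance per bp (right) for each list on the horizontal axis. Filled circles are block medians, open squares medians of the rest of the list, and bars run between the quartiles. In every list the block median is the wider and the lower per bp.

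The broadest peaks of the treated lists were in the block, over the gene-dense part at 44 to 45 Mb, and their genes were named after these widths were seen. With EZH2i, a single peak of 22644 bp (chr7:44227742-44250385) lay inside CAMK2B, which encodes the beta subunit of the calcium/calmodulin-dependent kinase CaMKII. Its area of 27793 was the largest of the whole EZH2i list, and it lay over 10 vehicle peaks, 5 CBPi peaks and 3 FSK peaks. The EZH2i peak with the next largest area of that list, 16260 bp wide at chr7:44102433-44118692, reached over AEBP1 and POLD2, the last a subunit of DNA polymerase delta, and over 6 vehicle peaks. With CBPi the widest was 12146 bp over AEBP1 and POLD2 (chr7:44106112-44118257), and with FSK it was 11824 bp in CAMK2B (chr7:44227873-44239696). The vehicle list had its widest block peak in MYO1G, a myosin of blood cells, at 7212 bp (chr7:44973476-44980687).

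Peaks over 3000 bp wide numbered 46 with EZH2i (3.52% of block peaks), 38 with CBPi (4.06%), 35 with FSK (2.45%) and 7 with vehicle (0.543%). Elsewhere the shares were 0.500%, 0.482%, 0.358% and 0.333%. A treated-list peak lay over more than 1 vehicle peak in 74 cases with EZH2i (5.66% of block peaks), 66 with CBPi (7.05%) and 68 with FSK (4.76%), against 0.993%, 1.57% and 0.870% elsewhere. Where 1 treated peak met 1 vehicle peak, the median ratio of treated to vehicle width was 1.02 with EZH2i, 0.974 with CBPi and 1.01 with FSK in the block, against 0.887, 0.965 and 0.923 elsewhere. The reverse, a vehicle peak over more than 1 treated peak, was 2.48%, 2.09% and 2.79% of block vehicle peaks, against 1.09%, 0.919% and 1.51% elsewhere. The block thus had more overlaps of 1 peak with several in both directions, and joined treated peaks bear on how loss is counted. The density that chose the block brings peaks closer by itself, and joining beyond it was not tested.

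Loss of vehicle peaks with EZH2i covered 317 of 1289 block peaks, or 24.6% (Wilson 95% interval 22.3 to 27.0), beside 37.7% of all vehicle peaks and 38.0% of those outside the block. A vehicle peak is lost when no base of it lies under a peak of the treated list. From the list-wide share of losses among vehicle peaks of like area, 567 losses were expected in the block. New EZH2i peaks, with no vehicle peak under them, made up 413 of 1307, or 31.6% (29.1 to 34.2), beside 6.98% of the whole EZH2i list and 6.17% of the rest. The number of block peaks, EZH2i minus vehicle, differed by 18, against -19930 for the whole lists. Where a vehicle peak had to hold a treated summit to count as kept, a rule chosen after seeing the data, the lost share was 34.8% in the block against 38.7% elsewhere, with 580 expected and 449 counted.

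With CBPi the block went the other way, losing 497 of 1289 vehicle peaks, or 38.6% (35.9 to 41.2), beside 30.6% of all vehicle peaks and 30.4% of those elsewhere. The number expected from peak area was 464, and from area per bp 543, so the direction against expectation turned with the measure used. New peaks were 201 of 936, or 21.5% (19.0 to 24.2), beside 10.7% of the whole CBPi list and 10.5% of its rest. The number of block peaks, CBPi minus vehicle, differed by -353, against -13855 for the whole lists. By the summit rule the lost share was 46.2% in the block and 31.7% elsewhere, with 485 losses expected from area and 596 counted.

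With FSK the block held 140 more peaks than with vehicle, against a difference of -9921 for the whole lists. The lost peaks numbered 269 of 1289, or 20.9% (18.7 to 23.2), beside 30.2% of all vehicle peaks and 30.4% of those elsewhere, with 459 expected. New peaks were 460 of 1429, or 32.2% (29.8 to 34.7), beside 15.9% of the whole FSK list and 15.4% of its rest. Under the summit rule the lost shares of block and rest were 30.3% and 31.3%, so the gap of the overlap rule was nearly gone, with 473 losses expected and 390 counted.

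Chromosome 7 outside the block was like the rest of the genome, with 38.2%, 32.6% and 30.6% of vehicle peaks lost and 5.34%, 8.35% and 14.7% of treated peaks gained with EZH2i, CBPi and FSK. All 3 treatments are set against 1 vehicle list, so the 3 sets of losses and gains are not independent. With EZH2i and FSK, the gap in loss between block and rest was widest among weak vehicle peaks. When all vehicle peaks were put into 4 equal classes by area, in the lowest class EZH2i lost 180 of 422 in the block, 42.7%, against 83.4% elsewhere, CBPi lost 283, or 67.1%, against 70.4%, and FSK lost 180, or 42.7%, against 70.3%. In the next class, CBPi lost 49.7% of 320 block peaks against 41.01% elsewhere, EZH2i 30.9% against 53.6% and FSK 21.6% against 40.01%. In the class above, of 293 block peaks, 12.3%, 16.7% and 6.14% were lost with EZH2i, CBPi and FSK, against 14.9%, 10.6% and 11.5% elsewhere. In the highest class, of 254 block peaks, 2, 6 and 2 were lost (0.787%, 2.36% and 0.787%), against 0.4%, 0.187% and 0.46% elsewhere.

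**Figure D3:**
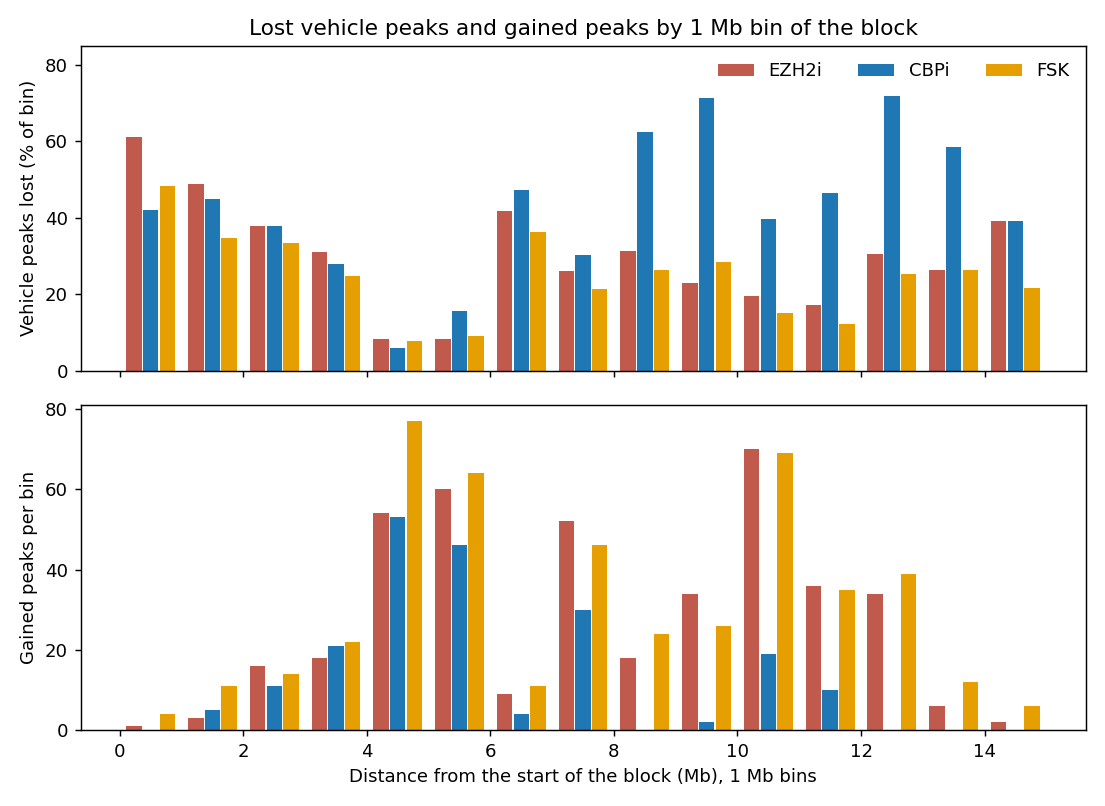
Share of vehicle peaks lost (upper panel, percent of the bin) and number of gained peaks (lower panel) in each 1 Mb bin, against distance from the start of the block in Mb, with bars for EZH2i, CBPi and FSK. CBPi bars stand highest in the upper panel at 8 to 10 and 12 to 14 Mb, where CBPi gains are 0 to 2 per bin.

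Along the block, losses with CBPi were unevenly spread. By 5 Mb window from 40 Mb on, CBPi lost 96 of 407 vehicle peaks (23.6%), 198 of 473 (41.9%) and 203 of 409 (49.6%), while EZH2i lost 27.3%, 23.7% and 23.0% and FSK lost 22.1%, 22.2% and 18.1%. Under the summit rule the losses per window were 42.8%, 32.6% and 29.6% with EZH2i, 36.1%, 48.8% and 53.3% with CBPi, and 36.1%, 30.2% and 24.4% with FSK. In the window from 40 to 45 Mb this turned the direction against expectation, with 174 lost and 161 expected with EZH2i, 147 and 135 with CBPi, and 147 and 131 with FSK, where by overlap 111, 96 and 90 were lost and 158, 129 and 127 expected. Gains per window were 92, 173 and 148 with EZH2i, 90, 82 and 29 with CBPi, and 128, 171 and 161 with FSK. Among all 5 Mb windows these ranked 6, 2 and 3 with EZH2i, 3, 5 and 18 with CBPi, and 5, 2 and 3 with FSK. The window with the most gains lay outside the block in each list. It was chromosome 9 at 135 to 140 Mb with EZH2i (185) and FSK (182). With CBPi it was chromosome 22 at 20 to 25 Mb (137). At 48 to 50 Mb, which holds ABCA13 and VWC2, CBPi lost 115 of 171 vehicle peaks (67.3%, 59.9 to 73.8) with 68.7 expected, against 46 lost with EZH2i and 47 with FSK. CBPi gained 2 peaks there, EZH2i 52 and FSK 50. At 52 to 54 Mb, with a single protein-coding gene, POM121L12, CBPi lost 85 of 128 (66.4%, 57.9 to 74.0) and gained 0, EZH2i lost 37 and gained 40, and FSK lost 33 and gained 51. By the summit rule the CBPi losses at these places were 69.6% and 67.2%. Between them, at 50 to 52 Mb, CBPi lost 109 of 258 (42.2%) with 103 expected, EZH2i 48 and FSK 36. Bins outside these stretches were also high with CBPi, such as 47.3% lost at 46 to 47 Mb and 44.9% at 41 to 42 Mb.

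The gene-dense stretch from 44 to 46 Mb looked different, and depended on the rule. By overlap, EZH2i lost 24 of 289 vehicle peaks (8.30%), CBPi 29 (10.0%) and FSK 24 (8.30%), with 120, 98.6 and 97.4 expected. By the summit rule, 111, 97 and 99 were lost, with 123, 103 and 101 expected. Of the 87, 68 and 75 vehicle peaks lost by summit alone, 76, 53 and 59 lay under a treated peak that reached over more than 1 vehicle peak. Gains in this stretch were 114 with EZH2i, 99 with CBPi and 141 with FSK. At the near end, 40 to 42 Mb, losses with EZH2i were 43 of 80 vehicle peaks (53.8%), with CBPi 35 and with FSK 32, against 36.1, 29.6 and 29.3 expected.

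Far from genes the 3 treatments also gave different shares. Of 326 vehicle peaks between genes and over 100 kb from any protein-coding gene end, 107 (32.8%) were lost with EZH2i, 199 (61.0%) with CBPi and 93 (28.5%) with FSK. By summits the block shares were 34.7%, 62.3% and 30.4%. By overlap, the same class elsewhere lost 51.7%, 53.04% and 36.8%. Expected losses from area in the block were 155, 127 and 126. Elsewhere 4812, 4934 and 3426 of this class were lost, with 4376, 3565 and 3517 expected. With CBPi, losses far from genes were thus above expectation in the block and elsewhere. Of the 94 gene-end peaks of the vehicle list in the block, 4 were lost with EZH2i, 6 with CBPi and 6 with FSK. These are 4.26%, 6.38% and 6.38%, against 8.97%, 4.50% and 8.58% of gene-end peaks elsewhere. From area, 24.7, 20.4 and 20.1 losses were expected in the block. Gene-end losses were below expectation elsewhere too, at 1202, 603 and 1150 with 1761, 1403 and 1408 expected. Of 63 protein-coding genes of the block, 56 had a gene-end peak in all 4 lists, and 4 had none in any (GLI3, SPDYE1, PKD1L1 and CDC14C). The remaining 3 differed between lists. SPDYE1, CDC14C and CCDC201 were in no gene list and were named after their values were seen. ABCA13 lacked one with CBPi, and CCDC201 lacked one with vehicle. DDC, the decarboxylase that makes dopamine and serotonin, had one with EZH2i and FSK but not with CBPi or vehicle. Gene ends here are the outer bounds of a gene only. At DDC, the 250 bases before the outer start (chr7:50565406-50565655) were covered over 0 bases in all 4 lists. Those before an inner start (chr7:50561072-50561321) were covered over 250 bases in all 4.

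**Figure D4:**
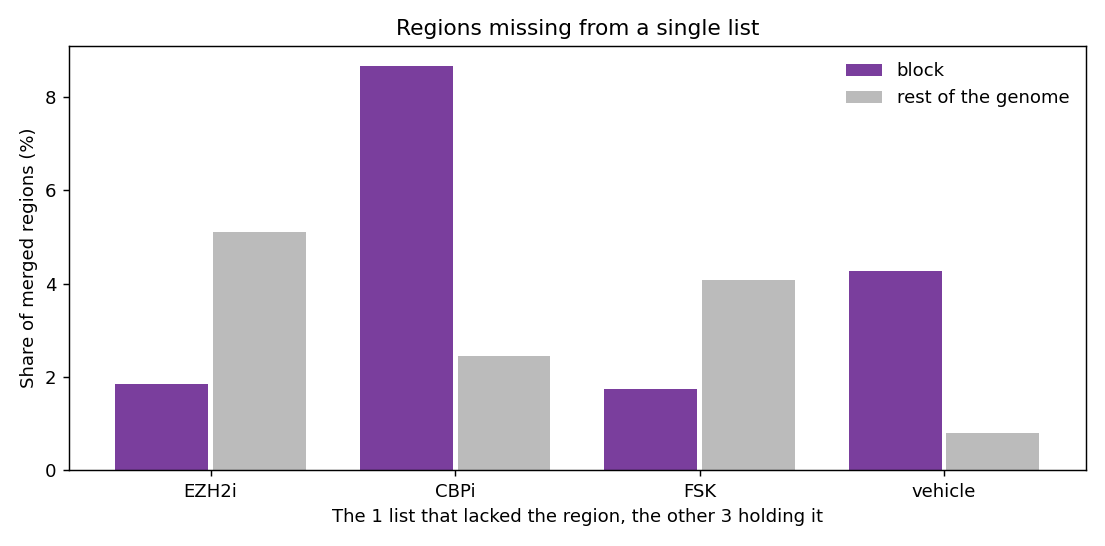
Share of merged regions (percent, vertical axis) that 3 lists held and the list named on the horizontal axis lacked, with bars for the block and the rest of the genome. The bar for CBPi is the highest in the block, at 8.67%, against 2.46% elsewhere.

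When the peaks of all 4 lists were merged, the block had 1777 regions, of which 596 (33.5%) were in all 4 lists, against 43.9% elsewhere. Regions that the other 3 lists held and CBPi lacked were 154, or 8.67%, against 2.46% elsewhere. Those that EZH2i lacked were 33 (1.86%, against 5.10%) and those that FSK lacked 31 (1.74%, against 4.09%). Regions held by the 3 treated lists and not by the vehicle list were 76, or 4.28%, against 0.795%. Regions seen in 1 list only were 30.4% of block regions and 28.1% of those elsewhere. In the block they were 156 for EZH2i, 38 for CBPi, 198 for FSK and 148 for vehicle. Elsewhere they were 1043, 2570, 5372 and 10752 of 70158 regions. The block's share was thus the higher for EZH2i and FSK and the lower for CBPi and vehicle.

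Gained peaks lay nearer to a vehicle peak in the block than elsewhere, but vehicle peaks themselves were more crowded there. Vehicle summits stood a median of 5441 bp apart in the block and 23777 bp elsewhere. The density that chose the block thus shortens such distances by itself, and no closeness beyond it is shown. The median distance of gained block peaks to the nearest vehicle peak was 2044 bp with EZH2i, 1891 bp with CBPi and 2128.5 bp with FSK. For gained peaks elsewhere it was 8503.5, 7758 and 11309.5 bp. Gained block peaks were weak per base and wider than gained peaks elsewhere. Their median width and median area per bp were 686 bp and 0.467 with EZH2i, 754 bp and 0.434 with CBPi, and 594 bp and 0.543 with FSK. Elsewhere the widths were 504 bp, 391 bp and 352 bp and the areas per bp 0.580, 0.807 and 0.934. Few were at gene ends, 7, 8 and 7 of the 413, 201 and 460. Lost vehicle peaks were narrower than kept ones in the block and elsewhere. In the block their median widths were 442 bp (EZH2i), 481 bp (CBPi) and 454 bp (FSK), against 730, 796 and 724 bp for the kept ones. Elsewhere lost peaks had 372, 361.5 and 373 bp, and kept ones 724, 670 and 663 bp.

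**Figure D5:**
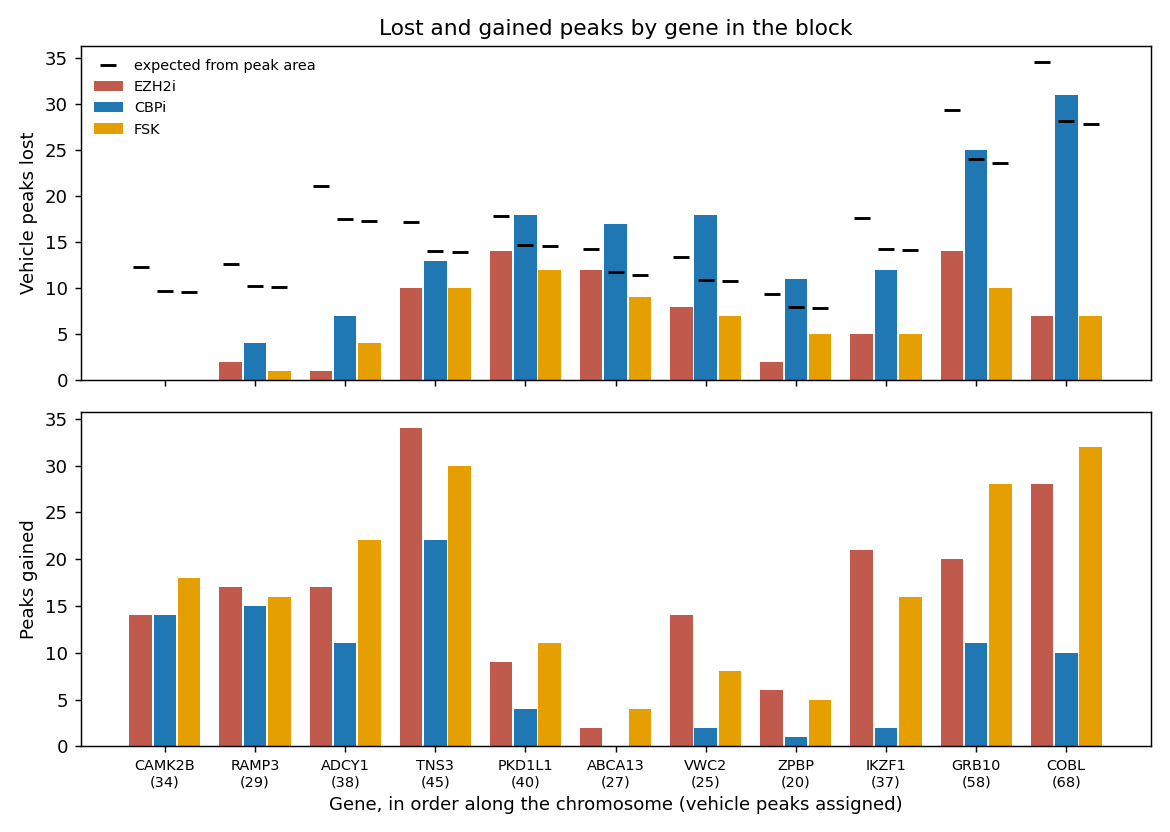
Vehicle peaks lost (upper panel) and peaks gained (lower panel) at 11 genes of the block in chromosome order, with bars for EZH2i, CBPi and FSK and the number of vehicle peaks in brackets. Black marks are the losses expected from peak area, and CBPi bars exceed them at PKD1L1, ABCA13, VWC2, ZPBP, GRB10 and COBL.

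By gene, peaks were assigned to the nearest end of a protein-coding gene within 100 kb. Among growth factor and receptor genes, GRB10, an imprinted adaptor that binds insulin and IGF receptors, had 63 peaks with EZH2i, 40 with CBPi, 73 with FSK and 58 with vehicle. It lost 14, 25 and 10 of the vehicle peaks, with 29.4, 24.1 and 23.6 expected, and gained 20, 11 and 28. Counted by summits, GRB10 lost 18, 31 and 16. VWC2, whose promoter stayed covered in all 4 lists, had 30, 10, 26 and 25 peaks, and CBPi lost 18 of the 25 with 10.9 expected, against 8 lost with EZH2i and 7 with FSK. RAMP3, a partner of calcitonin-family receptors, had 37, 35, 41 and 29 peaks nearest its ends and gained 17, 15 and 16. Inside its body only 1, 3 and 6 peaks were gained, so most of these gains lay outside the gene. The 7 genes of this role together lost 34, 57 and 26 of 151 vehicle peaks, with 70.1, 57.3 and 56.6 expected, and 51, 70 and 38 by the summit rule.

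Of the transcription factors, IKZF1 had 49 peaks with EZH2i, 25 with CBPi, 45 with FSK and 37 with vehicle. It lost 5, 12 and 5, with 17.6, 14.3 and 14.1 expected, and gained 21, 2 and 16. Counted by summits, its losses were 12, 15 and 12. GLI3, a Hedgehog-pathway factor, had 19, 20, 21 and 24 peaks and lost 9 with FSK, with 7.11 expected. Inside it lay the vehicle peak with the second largest area of the block, 12300 at chr7:42235616-42238516, kept in all treated lists. The 6 genes of transcription and chromatin lost 20, 22 and 20 of 89 vehicle peaks by overlap, with 37.7, 30.7 and 30.4 expected, and 33, 32 and 33 by summits, with 38.6, 32.1 and 31.4 expected.

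Among the cytoskeletal genes, TNS3 and COBL had the most peaks in every list and the most gains. TNS3, a tensin of focal adhesions, had 70 peaks with EZH2i, 54 with CBPi, 65 with FSK and 45 with vehicle, and gained 34, 22 and 30 while losing 10, 13 and 10. COBL, an actin nucleator, had 85, 45, 89 and 68 peaks. It lost 7 with EZH2i and 7 with FSK, where 34.6 and 27.8 were expected, and 31 with CBPi, where 28.2 were expected. COBL gained 28, 10 and 32, close to the gained share of all block peaks, which was 31.6%, 21.5% and 32.2%. The gained share of TNS3 was above those. Under the summit rule COBL lost 13, 35 and 16. The 5 genes of this role lost 19, 47 and 19 of 135 by overlap, with 61.4, 50.3 and 49.7 expected, and 33, 59 and 40 by summits, with 62.8, 52.4 and 51.2 expected. The largest vehicle peak lost with CBPi was in TNS3 (chr7:47292571-47293448, area 1868), and it was kept with EZH2i and with FSK.

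The 3 second messenger genes together lost 4, 10 and 7 of 81 vehicle peaks by overlap, with 35.3, 28.8 and 28.3 expected. By summits they lost 36, 35 and 34, with 36.1, 30.1 and 29.2 expected, so with CBPi and FSK the direction against expectation turned. CAMK2B had 31 peaks with EZH2i, 33 with CBPi, 38 with FSK and 34 with vehicle, lost 0 in each treatment and gained 14, 14 and 18. Counted by summits, 19, 18 and 18 of its 34 vehicle peaks were lost. Of these, 19, 16 and 18 lay under a treated peak that reached over more than 1 vehicle peak. ADCY1, an adenylyl cyclase stimulated by calmodulin, had 43, 39, 52 and 38 peaks, lost 1, 7 and 4 by overlap and 14, 14 and 13 by the summit rule, and gained 17, 11 and 22. The largest gained peak of each treatment lay in CAMK2B, at chr7:44261880-44265037 with EZH2i (3158 bp, area 2015), chr7:44219418-44221825 with CBPi (2408 bp, area 2050) and chr7:44251076-44253081 with FSK (2006 bp, area 1519).

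The 7 large or tissue-restricted genes lost 47, 71 and 40 of 150 vehicle peaks, with 71.1, 58.4 and 57.7 expected, and 57, 76 and 45 by summits. ABCA13 was among them, and lost more with CBPi than its peak areas gave. Peaks nearest its ends numbered 17 with EZH2i, 10 with CBPi, 21 with FSK and 27 with vehicle, and losses were 12, 17 and 9, with 14.3, 11.7 and 11.5 expected. In its whole body, 476 kb long, there were 47, 14, 51 and 51 peaks, with 15, 37 and 14 of the 51 lost and 11, 0 and 14 gained. A vehicle peak inside it at chr7:48316822-48318025 (area 1511) was the largest lost with EZH2i, and was also absent with CBPi. PKD1L1, a polycystin of cilia, had 36, 27, 41 and 40 peaks and lost 18 with CBPi, with 14.7 expected. ZPBP, an acrosomal protein of sperm, had 22, 9, 19 and 20 peaks and lost 11 with CBPi, with 7.91 expected. DDC had 35, 17, 30 and 19 peaks, and gained 18, 2 and 11.

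Losses exceeded expectation by overlap at 15 of the 62 genes with a vehicle peak with EZH2i, 19 with CBPi and 10 with FSK. No such count was made for genes outside the block or under the summit rule, so these are not read as high or low. With EZH2i the 4 with the largest excess were STK17A, a kinase (3 of 9 lost, 1.94 expected), MRPL32 of the mitochondrial ribosome (4 of 9, 3.14 expected), FIGNL1, an ATPase of recombination (2 of 4, 1.29 expected), and UPP1, a uridine phosphorylase (2 of 8, 1.46 expected). These excesses were small, from 0.542 to 1.06 peaks. Inside the gene bodies STK17A and UPP1 lost 2 each, while MRPL32 and FIGNL1, with 0 and 1 vehicle peaks there, lost 0. With FSK the 4 were GLI3, STK17A (3 of 9, 1.48 expected), BLVRA, the biliverdin reductase (6 of 13, 4.68 expected), and COA1, an assembly factor of the respiratory chain (3 of 8, 1.77 expected). Their excesses were 1.23 to 1.89 peaks, and inside the gene bodies they lost 8, 3, 3 and 3. UPP1 also held the vehicle peak with the largest area in the block, 14278 at chr7:48087953-48090858, kept in all treated lists. The housekeeping genes (protein and RNA, 10 genes) had a gene-end peak at all 10 in every list, and lost 14, 9 and 9 of 63 vehicle peaks, with 21.5, 17.4 and 17.3 expected, and 21, 16 and 19 by summits. The 8 metabolic genes lost 17, 21 and 17 of 95, with 41.9, 34.6 and 34.0 expected, and the 5 genes of DNA replication and repair 6, 5 and 4 of 27, with 10.2, 8.36 and 8.17 expected. By summits the metabolic genes lost 37, 31 and 30, with 42.8, 36.1 and 35.1 expected, and those of DNA replication and repair 11, 10 and 8, with 10.4, 8.71 and 8.42 expected.

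Peaks whose summit was over 100 kb from every protein-coding gene end numbered 423 with EZH2i, 225 with CBPi, 450 with FSK and 449 with vehicle. Of the 449 vehicle peaks, 146 were lost with EZH2i, 247 with CBPi and 121 with FSK, where 204, 168 and 166 were expected from their areas. An excess with CBPi is not particular to the block, as given above for peaks between genes. Gains in this class were 121 with EZH2i, 28 with CBPi and 121 with FSK. The largest vehicle peak lost with FSK was in this class, at chr7:49281406-49283153 (area 1470), which was also absent with CBPi, and another at chr7:53514518-53515843 (area 1466) was absent with EZH2i and CBPi and present with FSK.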

How the data were processed

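The files hold 4 deposited peak lists, 1 for each group of 2 ATAC-seq libraries, on hg38. The submitters' processing notes name Bowtie2, Genrich and deepTools 2.0, with no role or setting. Not given in the sources used here are the way libraries were combined, any Tn5 shift of read ends and the threshold. The deposited signal is the area of significance under a peak, at least 200 in every list, and the deposited score equals 1000 times area over width, capped at 1000, within 1 for 100.0% of 200358 peaks. The deposited −log10 p belongs to the summit, and the deposited starts, ends and summit offsets (BED, counted from 0) are printed counted from 1.

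Loss means that under 1 bp of a vehicle peak lay beneath treated-list peaks, and gain that a treated-list peak met none of the vehicle list. These terms describe lists, since a peak slightly under a threshold is not listed. Expected losses are the lost share of all vehicle peaks in 20 bins of area, summed over the peaks in question. Peaks were assigned to the nearest end of a protein-coding RefSeq gene (GRCh38.p14) within 100 kb of the summit, and gene-end peaks lie within 1 kb of an end. With 1 list per group no test was run and no p-value computed. Shares carry Wilson, densities exact Poisson, and medians binomial 95% intervals. The overlap code was tested on simulated peaks. Python 3.11.15, pandas 2.3.3, NumPy 2.4.6 and SciPy 1.17.1 were used.

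The members, gene lists and markers were chosen with earlier results of these data known. The result of 1 marker list is not reported here. Named genes are the 6 given with the region (COBL, IKZF1, GRB10, TNS3, VWC2, ABCA13), the 4 with the most losses above expectation and the 4 with the most gains per treatment, and listed genes whose gene-end peak was in some lists only. Alternatives were 50% overlap, lists of equal length, areas of at least 400, borders of 42 to 53 Mb, peaks away from gene ends, assignment by gene body and, chosen after seeing the data, summit rules and expected losses by area per bp.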

Additional observations from a re-analysis of the deposited data

How the results depend on the processing

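The block stood on the same side of the rest of its list in density, width, area per bp, gained share and lost share under every setting run, but several sizes moved. With at least 50% of a peak covered, the lost share was 28.0% with EZH2i, 43.4% with CBPi and 25.3% with FSK, and the gained share 40.3%, 29.0% and 38.7%. With all lists cut to the length of the shortest, 41086 peaks, the lost share was 13.3%, 25.9% and 12.7% and the gained share 51.03%, 30.1% and 41%, while density came to 51.5 peaks per Mb with CBPi, 73.3 with FSK and 50.8 with vehicle, EZH2i being the shortest list. With borders of 42 to 53 Mb the lost share with EZH2i was 22.2%, and density was 110 (EZH2i), 77.2 (CBPi), 117 (FSK) and 103 (vehicle) peaks per Mb. By the summit rules the lost share was 34.8%, 46.2% and 30.3% and the gained share 34.4%, 24.6% and 35.2%. For peaks over 1 kb from gene ends, block over rest was 0.628 (EZH2i) and 0.723 (vehicle) in area per bp and 1.62 (EZH2i), 1.62 (CBPi), 1.52 (FSK) and 1.37 (vehicle) in width. Beyond the construction of each setting, the cause was not tested. Areas of at least 400 left every lost and gained share of the block within its interval. Expected block losses by area per bp were 655 with EZH2i, 543 with CBPi and 544 with FSK, above those by area and, with CBPi, above the 497 counted. Summits inside IKZF1 gave 2, 6 and 4 losses and 15, 1 and 6 gains, and those inside COBL 25, 9 and 21 gains.

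No paired analysis was possible because each group has 1 deposited list. Depth is unknown, and lists of different length differ in how weak a peak they hold. DNA copy number of the block was not analysed here.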
